A study of Mus musculus with 3 samples.

Results

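Heme synthesis was followed through single cells of the mouse cochlea with 9 genes, for enzymes of the pathway and its mitochondrial iron importer. These were Alas1, Alas2, Alad, Uros, Urod, Cpox, Ppox, Fech and Slc25a37, chosen by name with earlier results of these data known. They are 9 of the 32285 genes in the count matrix, of which 24657 had at least 1 UMI (unique molecular identifier, 1 for each captured RNA molecule). The study compared C57BL/6J mice of an HHL group, exposed once to noise at 110 dB for 2 h, an NIHL group, exposed at 115 dB for 4 h on each of 3 days, and an unexposed control group, all kept alike otherwise, with cochleae taken 6 h after the last exposure. Each group is 1 library of cells from 6 mice. The matrix tells its libraries apart only by a barcode suffix of 1, 2 or 3, and no label ties a suffix to an exposure, so the libraries are named by suffix, exposures were not compared and no test was made between libraries.

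Heme is built from glycine and succinyl-CoA in a chain of enzymatic steps that begins and ends in the mitochondrion and passes through the cytosol. The first step, catalysed by 5-aminolevulinate synthase, sets the rate; Alas1 encodes the form used in most tissues and the X-linked Alas2 the form used in red cell precursors, where heme goes into hemoglobin. Alad, Uros, Urod, Cpox and Ppox encode the enzymes that turn aminolevulinate into protoporphyrin, Fech encodes ferrochelatase, which inserts the iron, and Slc25a37 encodes mitoferrin 1, which carries iron into the mitochondria of red cell precursors.

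After filtering, libraries 1, 2 and 3 held 16883, 9602 and 10703 cells, with median depths between 5464 and 8098 UMIs. Between 31 and 53 barcodes recurred in a pair of libraries, and Scrublet called between 4.69% and 5.63% of cells doublets. Cells were named by marker gates that hold none of the 9 genes. Late erythroid cells had at least 3 of 8 late markers other than hemoglobin and at least 20% of their UMIs in hemoglobin (the 4 adult globin genes), and numbered 45, 1114 and 631. Early erythroid cells had at least 5 of 8 early markers and under 10% hemoglobin, and numbered 64, 481 and 862. Cells named granulocyte-monocyte progenitors (GM progenitors), of another blood lineage, numbered 1372, 404 and 886. They were gated on Elane, Mpo, Prtn3, Ctsg, Ms4a3 and Srgn, and neither their stage nor their division was tested. The gated late cells of the libraries were not alike: hemoglobin took a median of 43.8%, 55.2% and 84.7% of their UMIs, and 0.00449% to 0.159% in GM progenitors. In early cells it took a median of 4.48% in library 1, against 0.732% and 0.619% in libraries 2 and 3. All 12 late markers, the globin genes included, were found in late cells of every library and all 8 early markers in early cells, while the 7 T cell markers summed to 4.16 to 9.29 CPM (the genes' UMIs per 1000000 UMIs of those cells) in late cells and at most 11.7 CPM in early cells. The 7 neutrophil markers, led by S100a8 or S100a9, summed to 5709 to 6519 CPM in late and 3337 to 10110 CPM in early cells. The part of these markers' cells in the results was not tested. GM progenitors of libraries 1, 2 and 3 had 12708, 12394 and 10106 CPM of S100a8, more than of any marker of their own gate.

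The promoters of 4 of the genes are shown first. Those of Alas2, Cpox and Uros hold the letters that erythroid GATA factors bind. That of Alas1 does not, nor do those of Alad, Ppox and Urod, which are not shown. RefSeq promoters on build GRCm38.p6 matched 7 of the 9 genes, with 10 starts, and each was read over the 250 bases before the start. Capitals mark a GATA match, that is GATA with A or T before it and A or G after it, on either strand.
Alas2 (chrX:150547167-150547416, plus strand): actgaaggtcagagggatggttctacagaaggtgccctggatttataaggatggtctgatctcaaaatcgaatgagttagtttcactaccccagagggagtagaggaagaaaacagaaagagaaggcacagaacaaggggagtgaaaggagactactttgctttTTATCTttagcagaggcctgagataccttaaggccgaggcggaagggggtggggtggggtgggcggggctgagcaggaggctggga
Cpox (chr16:58669958-58670207, plus strand): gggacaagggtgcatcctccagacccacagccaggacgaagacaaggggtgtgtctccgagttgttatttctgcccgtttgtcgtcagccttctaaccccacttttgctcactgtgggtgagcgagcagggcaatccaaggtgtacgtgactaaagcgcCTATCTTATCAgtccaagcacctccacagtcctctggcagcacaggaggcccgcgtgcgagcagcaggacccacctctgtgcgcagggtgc
Uros (chr7:133702501-133702750, minus strand): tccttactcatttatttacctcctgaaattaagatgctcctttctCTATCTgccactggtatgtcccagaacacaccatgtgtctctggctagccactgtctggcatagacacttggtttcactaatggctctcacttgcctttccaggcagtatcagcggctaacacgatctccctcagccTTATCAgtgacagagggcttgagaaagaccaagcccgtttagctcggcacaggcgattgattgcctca
Alas1 (chr9:106247731-106247980, minus strand): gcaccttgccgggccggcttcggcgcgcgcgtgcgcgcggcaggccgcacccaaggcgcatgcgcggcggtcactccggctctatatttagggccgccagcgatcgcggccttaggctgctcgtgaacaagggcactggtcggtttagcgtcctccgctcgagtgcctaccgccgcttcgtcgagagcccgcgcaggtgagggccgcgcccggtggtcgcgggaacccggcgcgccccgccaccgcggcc
GATA letters stood 86 bases before the start of Alas2, 91 and 86 bases before that of Cpox, where the 2 matches overlap by 1 base, and 205 and 68 bases before 1 of the 2 starts of Uros. They were in these 3 of the 10 promoters, and in 26.5% of all 32851 promoters of this length. Neither of the 2 promoters of Alas1 held them, nor did those of Alad, Ppox and Urod or the other start of Uros. The letters CACCC, bound by erythroid KLF factors and searched on both strands, lay 40, 35 and 30 bases before the start of Alas2. They were also in both promoters of Alas1, in that of Cpox and in 1 of the 2 of Alad, 5 of the 10 in all, and are in 52.0% of all promoters. Such matches describe the letters and are not evidence of binding.

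The form of the first enzyme differed between the cell types. Alas2 had 1480, 1362 and 1291 CPM in late erythroid cells of libraries 1, 2 and 3, against 128, 50.4 and 44.8 CPM in early erythroid cells and 1.08, 12.9 and 5.07 CPM in GM progenitors. Every late value lay above every early value, and every early value above every progenitor value. Alas1 ran the other way. It had 8.32 CPM (2 UMIs), 5.64 and 6.67 CPM in late cells and 11.0, 11.0 and 13.1 CPM in early cells, against 240, 222 and 176 CPM in GM progenitors. Among UMIs other than hemoglobin the late-over-early ratios of Alas1 were 1.26, 1.05 and 1.77, so late cells were not lower than early ones on that scale. Of the UMIs of both genes, Alas2 held 99.4%, 99.6% and 99.5% in late cells, 92.1%, 82.1% and 77.4% in early cells and 0.448%, 5.49% and 2.79% in GM progenitors. The exact 95% intervals of these shares do not overlap between the 3 cell types within any library. A UMI counts a molecule by its 3′ end, so the shares do not depend on transcript length, and like all intervals here they cover counting error only.

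A UMI of Alas2 was found in 97.8%, 99.7% and 99.7% of late cells and in 67.2%, 59.5% and 48.3% of early cells. T cells, which should lack it, had one in 0.633%, 7.46% and 5.80% of cells, at median depths of 3844, 4229 and 5994 UMIs, against 3983, 6938 and 7519 UMIs in late cells. Thinned to 1000 UMIs a cell, the shares were 69.8%, 76.0% and 74.2% in late cells and 7.81%, 7.93% and 6.50% in early cells. At that depth Alas1 was met in 0%, 0.546% and 0.954% of late cells, 4.69%, 1.25% and 1.28% of early cells and 21.8%, 21.1% and 16.5% of GM progenitors. The thinning left out at most 16 late, 2 early and 79 progenitor cells of a library as too shallow, and the 0 of 43 late cells of library 1 for Alas1 allows, at the limit of 3 cells set for a count of 0, a share of up to 6.98%.

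**Figure D1:**
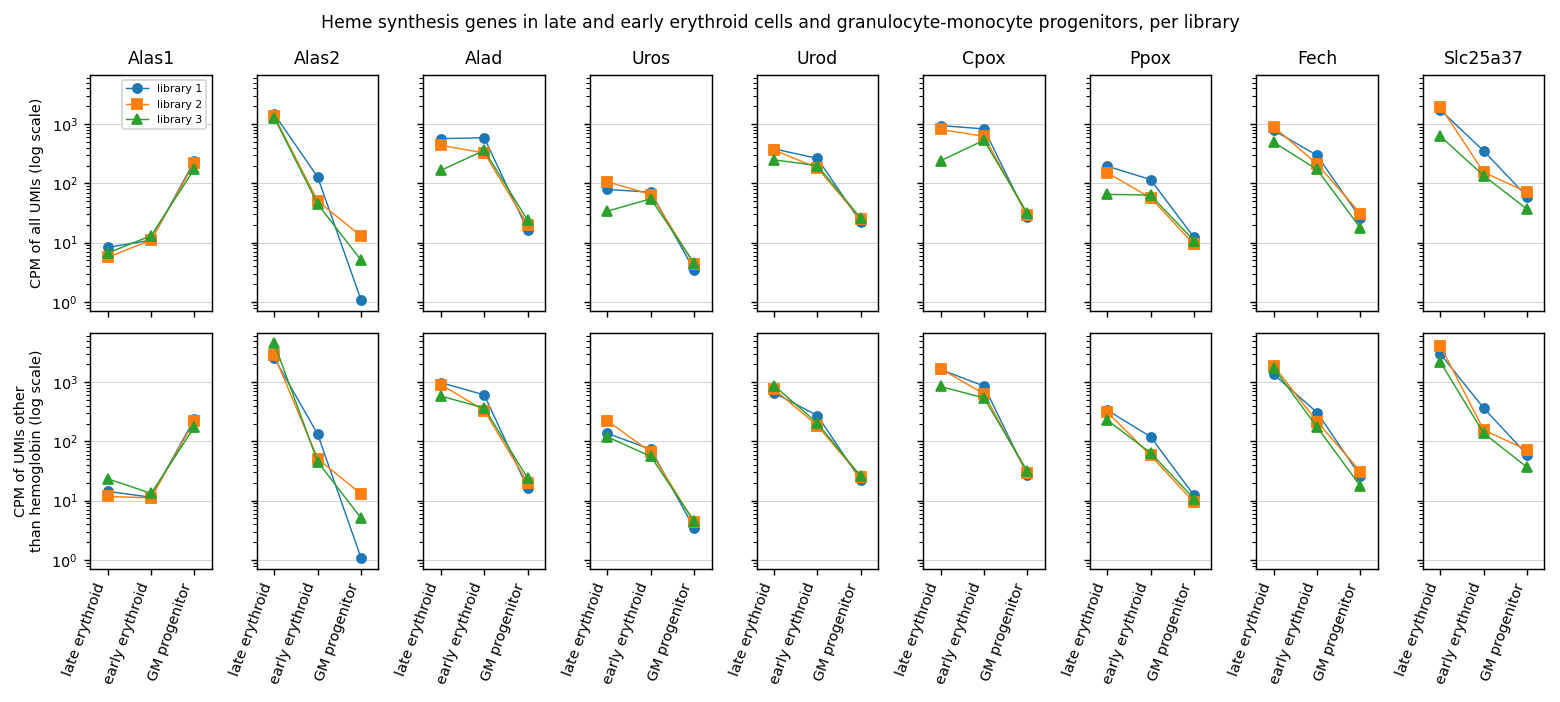
Level of each gene (log scale) in late erythroid cells, early erythroid cells and granulocyte-monocyte (GM) progenitors of the 3 libraries, as CPM of all UMIs (top) and as CPM of UMIs other than hemoglobin (bottom). Alas1 is highest in the progenitors, at 176 to 240 CPM, while the other 8 genes are lowest there; in the top row late and early cells overlap for Alad, Uros, Urod, Cpox and Ppox.

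Of the cytosolic steps, Alad, whose enzyme joins aminolevulinate into porphobilinogen, had 570, 438 and 166 CPM in late cells, against 589, 327 and 360 CPM in early cells and 16.4, 20.1 and 24.0 CPM in GM progenitors. Late and early values overlapped, and both lay above the progenitors. Uros, whose enzyme closes the uroporphyrinogen ring, was scarcer, with 79.0, 107 and 34.0 CPM in late cells, against 71.0, 64.9 and 55.0 CPM in early cells and 3.42 to 4.47 CPM in GM progenitors. Urod, which trims that ring to coproporphyrinogen, had 382, 365 and 250 CPM in late cells and 264, 183 and 200 CPM in early cells, with 22.0 to 25.7 CPM in GM progenitors. Within each library Urod was higher in late than in early cells. Alad and Uros were higher in late cells of library 2 and lower in those of library 3, and in library 1 their late-over-early ratios, 0.967 (0.797 to 1.17) and 1.11 (0.633 to 1.87), had exact 95% intervals on both sides of 1.

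Of the mitochondrial steps, Cpox, coproporphyrinogen oxidase, had 948, 813 and 241 CPM in late cells, against 831, 625 and 535 CPM in early cells and 27.2 to 31.4 CPM in GM progenitors. Ppox, protoporphyrinogen oxidase, had 195, 152 and 65.4 CPM in late cells, 116, 57.3 and 63.3 CPM in early cells and 9.38 to 12.3 CPM in GM progenitors. Fech had 786, 904 and 495 CPM in late cells, 297, 212 and 172 CPM in early cells and 17.5 to 30.9 CPM in GM progenitors. Slc25a37 had 1742, 1986 and 626 CPM in late cells, 353, 154 and 135 CPM in early cells and 36.7 to 71.2 CPM in GM progenitors. The groups do not overlap for Fech and Slc25a37, the iron steps, while for Cpox and Ppox the late value of library 3 was the lowest late value and lay below or among the early ones.

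Library 3, with the lowest late values, was also the library with the highest hemoglobin share in late cells. On the scale of all UMIs, its late cells were the lowest of the 3 libraries for 8 of the 9 genes, Alas1 being the exception, and the highest library exceeded the lowest at least 2-fold for 5 of the 8 with at least 3 UMIs in each (Alad, Uros, Cpox, Ppox and Slc25a37), against 81.1% of all genes with enough UMIs over the 3 libraries, where sums under 3 UMIs were set to 3. On the scale of UMIs other than hemoglobin that held for Cpox alone, at 1638, 1694 and 847 CPM, against 43.7% of genes. In early cells Alas2, Ppox and Slc25a37 differed at least 2-fold between libraries, against 23.9% of genes, each with its highest value in library 1, whose early cells had the higher hemoglobin share. In GM progenitors Alas2 did so, against 19.1% of genes, lowest in library 1. The part that hemoglobin share plays in these values was not tested.

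Late erythroid cells were set against early ones in edgeR's quasi-likelihood test on UMIs summed per cell type and library, with library as a block and TMM scaling, which follows the bulk of genes and so largely sets hemoglobin aside. Of the 9 genes, 8 rose in late cells and none fell, where 27.9% of the 11776 genes tested rose and 19.4% fell. Alas2 rose most, by 5.63 ± 0.68 on the log2 scale (SE; edgeR adjusted p = 6.8e-06; higher in 3 of 3 libraries). Slc25a37 rose by 4.10 ± 0.37 and Fech by 3.11 ± 0.33. Ppox rose by 2.18 ± 0.29, Urod by 2.03 ± 0.29, Uros by 1.56 ± 0.28, Cpox by 1.21 ± 0.28 and Alad by 1.13 ± 0.30, the smallest of the 8 (edgeR adjusted p = 0.0051). Alas1 did not pass, with a difference of 0.78 ± 0.33 (edgeR adjusted p = 0.059). The median of all genes tested was 0.13.

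The differences depend on the denominator, and for 7 of the 9 genes so does the direction on at least 1 of the scales that follow. With library totals in place of TMM, hemoglobin counts in full, the median of all genes becomes -1.45, and 4.25% of genes rise and 64.3% fall. On that scale 3 of the 9 rose, Alas2 by 4.26, Slc25a37 by 2.71 and Fech by 1.67, while Alas1 stood at -0.90, Alad at -0.18 and Cpox at -0.10, none of them passing. Counted per cell, late cells held fewer UMIs than early cells of 7 of the 9 genes in every library. Alad averaged 3.04, 3.35 and 1.34 UMIs in late cells and 9.20, 11.9 and 12.4 in early cells. Cpox averaged 5.07, 6.20 and 1.95 UMIs in late cells and 12.98, 22.7 and 18.4 in early cells, and Fech 4.20, 6.91 and 3.99 in late cells and 4.64, 7.68 and 5.90 in early cells. Alas2 averaged 7.91, 10.4 and 10.4 UMIs in late cells and 2.00, 1.83 and 1.54 in early cells, and Slc25a37 9.31, 15.2 and 5.06 in late cells and 5.52, 5.59 and 4.65 in early cells. Alas2 and Slc25a37, averaged over each library's cells, were thus higher in late cells on all 3 scales. These are UMIs other than hemoglobin, all UMIs and UMIs per cell. Per cell this did not hold for Slc25a37 in the late cells of library 3 at 80% hemoglobin or more. Those 428 cells averaged 3.16 UMIs of it, below the early 4.65. The median cell held 3983, 6938 and 7519 UMIs of all genes when late, against 13346, 35376 and 32427 when early. The early gate asked for more detected markers, at least 5 of 8 against 3 of 8. The part of this in the totals and in the UMIs per cell was not tested.

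Without library 2, Alad no longer passed (0.68, edgeR adjusted p = 0.096), and the log2 difference of Alas2 was 6.61 without library 1 and 4.83 without library 3. With the late gate set at 50% hemoglobin, a limit chosen after seeing the data, 5 of the 9 rose and Alad stood at -0.35.

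Early erythroid cells were set against GM progenitors in the same fit, and most of the pathway was already higher. Of the 9 genes, 8 rose and 1 fell, where 17.8% of genes rose and 25.4% fell. Cpox rose by 4.47 ± 0.31, Alad by 4.36 ± 0.34, Uros by 3.91 ± 0.30, Alas2 by 3.81 ± 0.66, Fech by 3.20 ± 0.33, Urod by 3.15 ± 0.30, Ppox by 2.78 ± 0.29 and Slc25a37 by 1.92 ± 0.34 on the log2 scale (SE; edgeR adjusted p from 4.4e-09 to 0.00013). Alas1 fell by 4.19 ± 0.29 (edgeR adjusted p = 4.5e-09), lower in 3 of 3 libraries. The Alas2 difference was 2.45 without library 1 and 5.13 without library 2. Per 1000 hemoglobin UMIs the progenitors held 4.21, 3.97 and 2.15 UMIs of Alas2, close to the 3.68, 3.37 and 3.09 of early cells, and the part of free RNA in the progenitor level, and with it in the size of each Alas2 difference over progenitors, was not tested.

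Late erythroid cells against GM progenitors gave 8 genes higher and 1 lower, where 26.8% of genes rose and 30.5% fell. Alas2 rose by 9.44 ± 0.79 and Alas1 fell by 3.41 ± 0.32 on the log2 scale (SE; edgeR adjusted p = 1.9e-08 and 9.7e-08), and the other 7 rose by 4.96 to 6.31. Alas2 was 10.36 without library 2. This comparison shares its cells with the 2 before it and is no separate evidence.

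The order in which the genes come up was read along the hemoglobin share of single erythroid cells. There were 8 bins, from under 0.5% to 80% or more, over 3550 cells. Of these, 3197 were the gated early cells, under 10%, and late cells, from 20% on. The rest, at 10 to 20%, had at least 5 early markers and passed neither erythroid gate. Library 1 filled 4 of the bins with at least 10 cells. On the scale of UMIs other than hemoglobin, Alas2 was higher in each next bin: it had 8.06 and 4.11 CPM under 0.5% in libraries 2 and 3, 183 and 170 CPM at 2 to 10%, 1358 and 946 CPM at 20 to 40% and 15259 and 10011 CPM at 80% or more. In the lowest bin Alas1, at 12.8 and 13.5 CPM, was above Alas2. From 0.5 to 2% on, at 31.8 and 31.0 CPM, Alas2 was the higher of the pair. Cpox by contrast was already at 460 and 393 CPM in the lowest bin, and Alad at 235 and 247 CPM. As CPM of all UMIs, Alas2 in the lowest bin, at 8.04 and 4.11 CPM, was below its level in GM progenitors, at 12.9 and 5.07 CPM. The median hemoglobin share of neutrophils in libraries 2 and 3, 0.453% and 0.198%, also lay under 0.5%. The part of free RNA in the Alas2 and hemoglobin of the lowest bin was not tested.

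**Figure D2:**
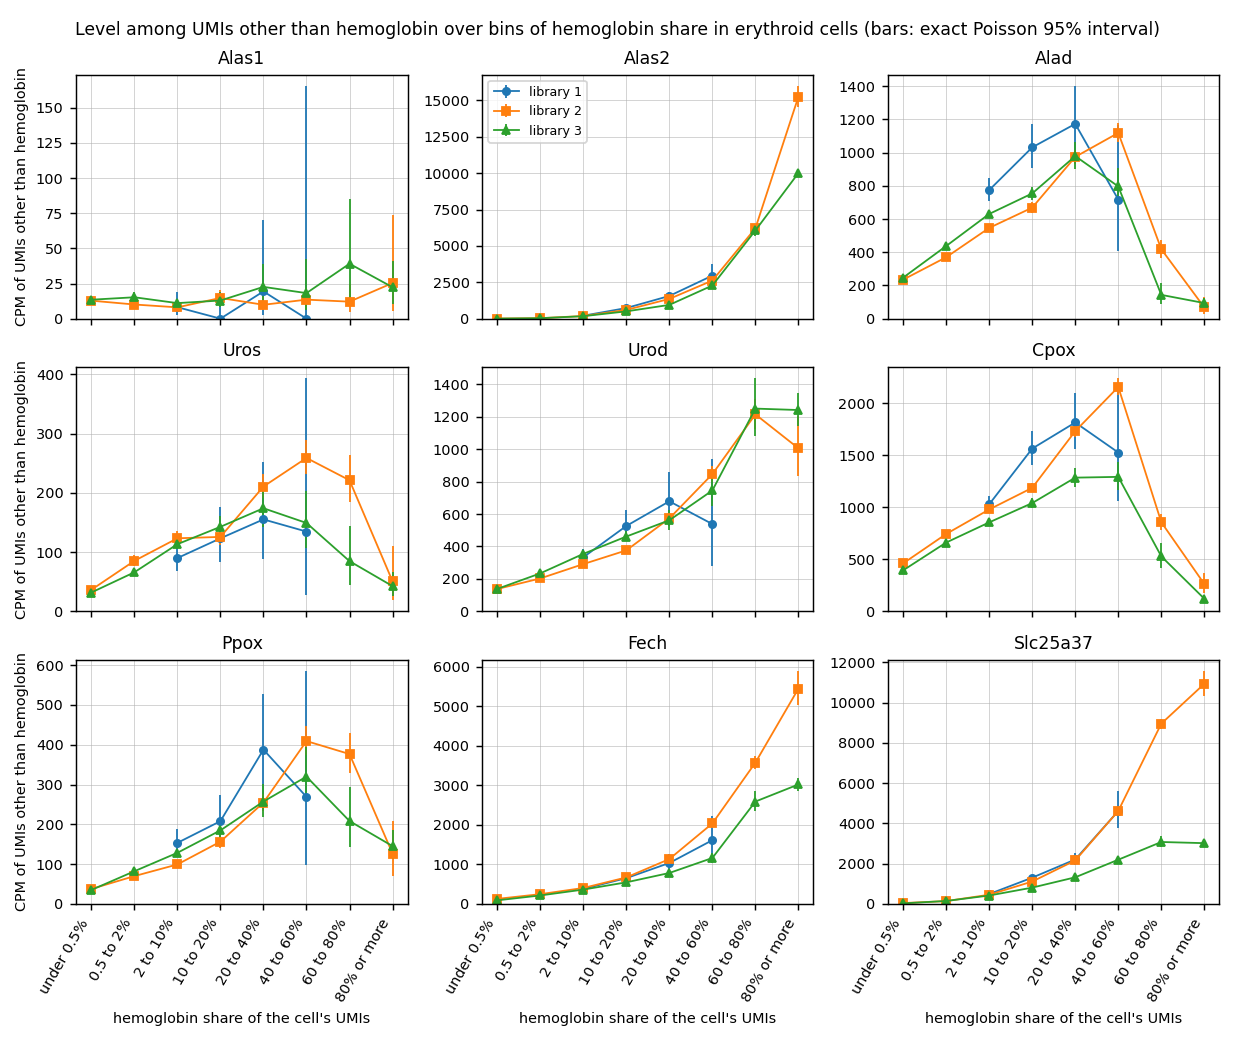
CPM of UMIs other than hemoglobin (vertical axis, from 0) over bins of the hemoglobin share of each erythroid cell's UMIs, for the 3 libraries, with exact Poisson 95% intervals. Alas2 and Fech are highest at 80% or more in libraries 2 and 3, while Alad, Uros, Cpox and Ppox are highest between 20% and 60% and lower beyond.

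The intermediate enzymes were highest before the last bin, and the iron steps in or next to it. Alad was highest at 40 to 60% in library 2, with 1119 CPM of UMIs other than hemoglobin, and at 20 to 40% in library 3, with 979 CPM, and had 67.6 and 94.0 CPM at 80% or more. Cpox was highest at 40 to 60%, with 2154 and 1291 CPM, and had 262 and 121 CPM at 80% or more. Uros and Ppox also had their highest values between 20% and 60% in each library, and Urod at 60 to 80% in libraries 2 and 3, with 1215 and 1250 CPM. Fech reached 5450 and 3024 CPM at 80% or more. Slc25a37 had 8961 and 3080 CPM at 60 to 80% and 10942 and 3022 CPM at 80% or more. These are descriptions of binned cells within single libraries and carry no test.

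Counted in UMIs per cell, the same genes are highest earlier, where the cells held more UMIs of all genes. The part that the marker gates play in these totals was not tested. The median cell held 43523 and 41260 UMIs in the lowest bin and 5273 and 7402 in the highest. Alad and Cpox were highest at 0.5 to 2% hemoglobin, with 12.9 and 14.2 UMIs per cell of Alad and 25.9 and 21.4 of Cpox, and at 80% or more a cell held on average 0.0430 and 0.0981 UMIs of Alad. Alas2 was highest at 60 to 80% in library 2, with 11.4 UMIs per cell, and at 40 to 60% in library 3, with 12.1, and still had 9.71 and 10.5 at 80% or more. Fech had 3.47 and 3.16 UMIs per cell there, after 9.42 at 2 to 10% in library 2 and 8.22 at 10 to 20% in library 3. Slc25a37 was highest at 40 to 60% in library 2, with 18.1 UMIs per cell, and at 10 to 20% in library 3, with 12.2. At 80% or more Slc25a37 had 6.96 and 3.16. Alas1 was highest in the lowest bin, at 0.582 and 0.583 UMIs per cell, and lowest in the highest.

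**Figure D3:**
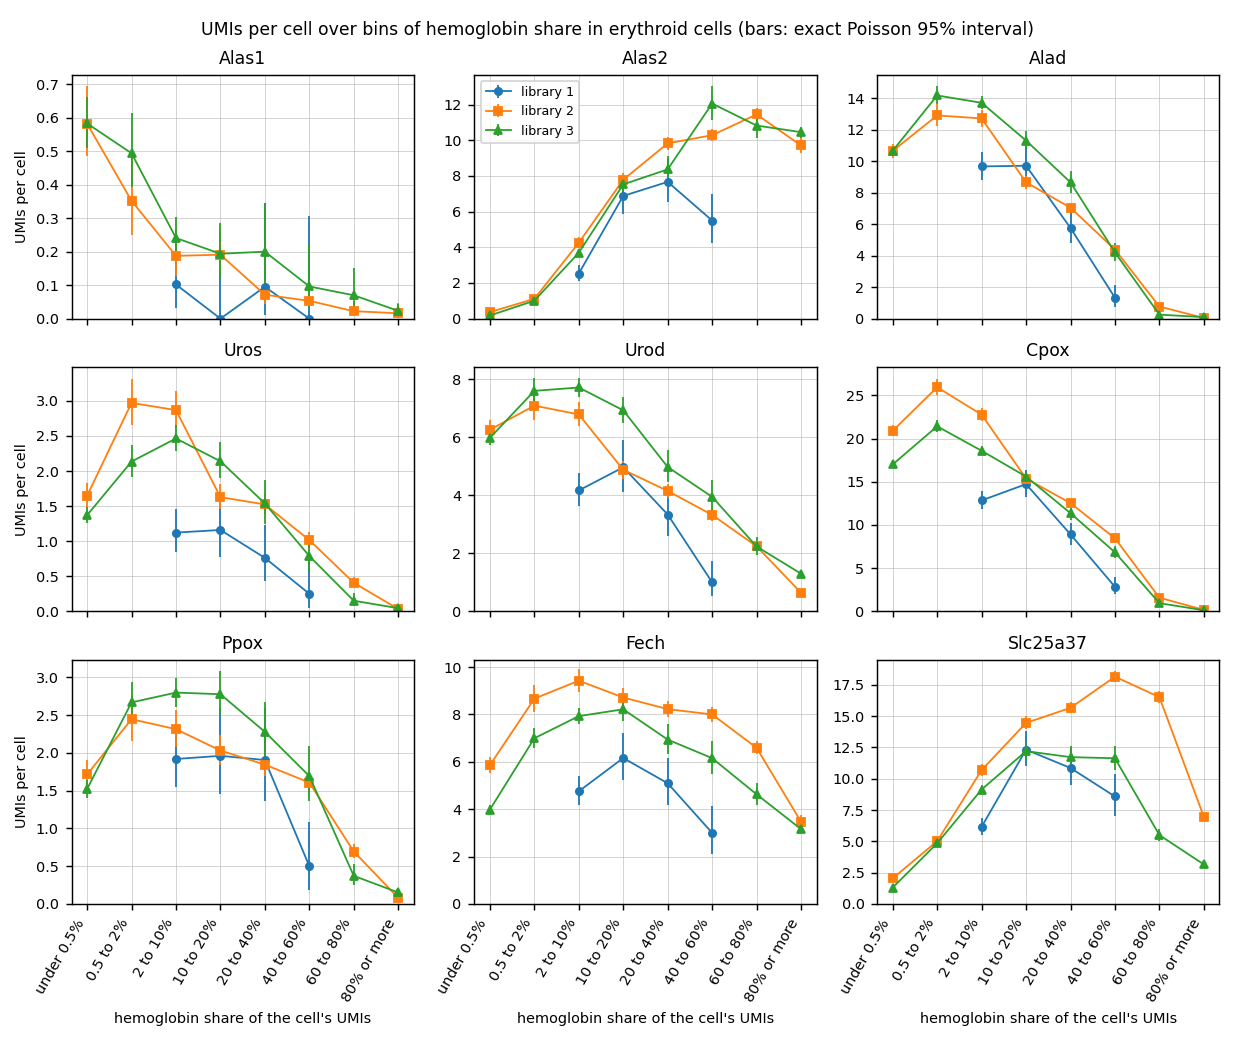
UMIs per cell (vertical axis, from 0) over the same bins of hemoglobin share, for the 3 libraries, with exact Poisson 95% intervals. Alas2 stays at 9.71 and 10.5 UMIs per cell in the last bin of libraries 2 and 3, where Alad has 0.0430 and 0.0981.

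Outside the erythroid cells, 18 types had at least 20 cells in every library. Alas1 was highest of all 20 types in GM progenitors and next highest in immature neutrophils, at 92.8, 77.5 and 145 CPM, in each library. Mature neutrophils had 46.1, 37.01 and 70.7 CPM. Immature neutrophils stood at 0.387, 0.348 and 0.824 of the progenitor level and mature neutrophils at 0.193, 0.166 and 0.401, and none of these exact 95% intervals reaches 1. Library 3 thus showed the smallest step from progenitor to immature neutrophil. Macrophages had 38.8, 48.8 and 38.5 CPM of Alas1 and T cells 20.7, 7.99 and 13.8 CPM, and the median of the 18 types was 27.7, 28.7 and 37.5 CPM. Late erythroid cells, at 5.64 to 8.32 CPM, were below every one of the 18 types in each library on the scale of all UMIs, with 2 UMIs in library 1. Among UMIs other than hemoglobin they had 14.4, 11.8 and 23.4 CPM, above T cells in libraries 2 and 3 (8.02 and 13.9 CPM) and below them in library 1 (20.7 CPM). Epithelial cells, 51, 39 and 19 in number, had 46.1, 174 and 67.8 CPM.

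Alad and Cpox had their highest values outside the erythroid cells in Schwann cells, the myelin-forming glia, in libraries 1 and 2. Alad had 132, 104 and 63.2 CPM there, against medians of 17.8, 24.4 and 25.7 CPM over the 18 types, and was highest in library 3 too. Cpox had 97.0 and 156 CPM, but 17.2 CPM in library 3, where macrophages were highest at 61.8 CPM. The Schwann values rest on 6 to 30 UMIs each, at median depths of 2085 to 3721 UMIs, and a UMI of Cpox was met in 4 of 77, 5 of 30 and 6 of 81 cells. Uros, Urod, Ppox and Fech were led outside the erythroid cells by a different type in each library, at 13.2 to 20.4, 35.8 to 50.7, 20.9 to 32.9 and 63.0 to 74.6 CPM.

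**Figure D4:**
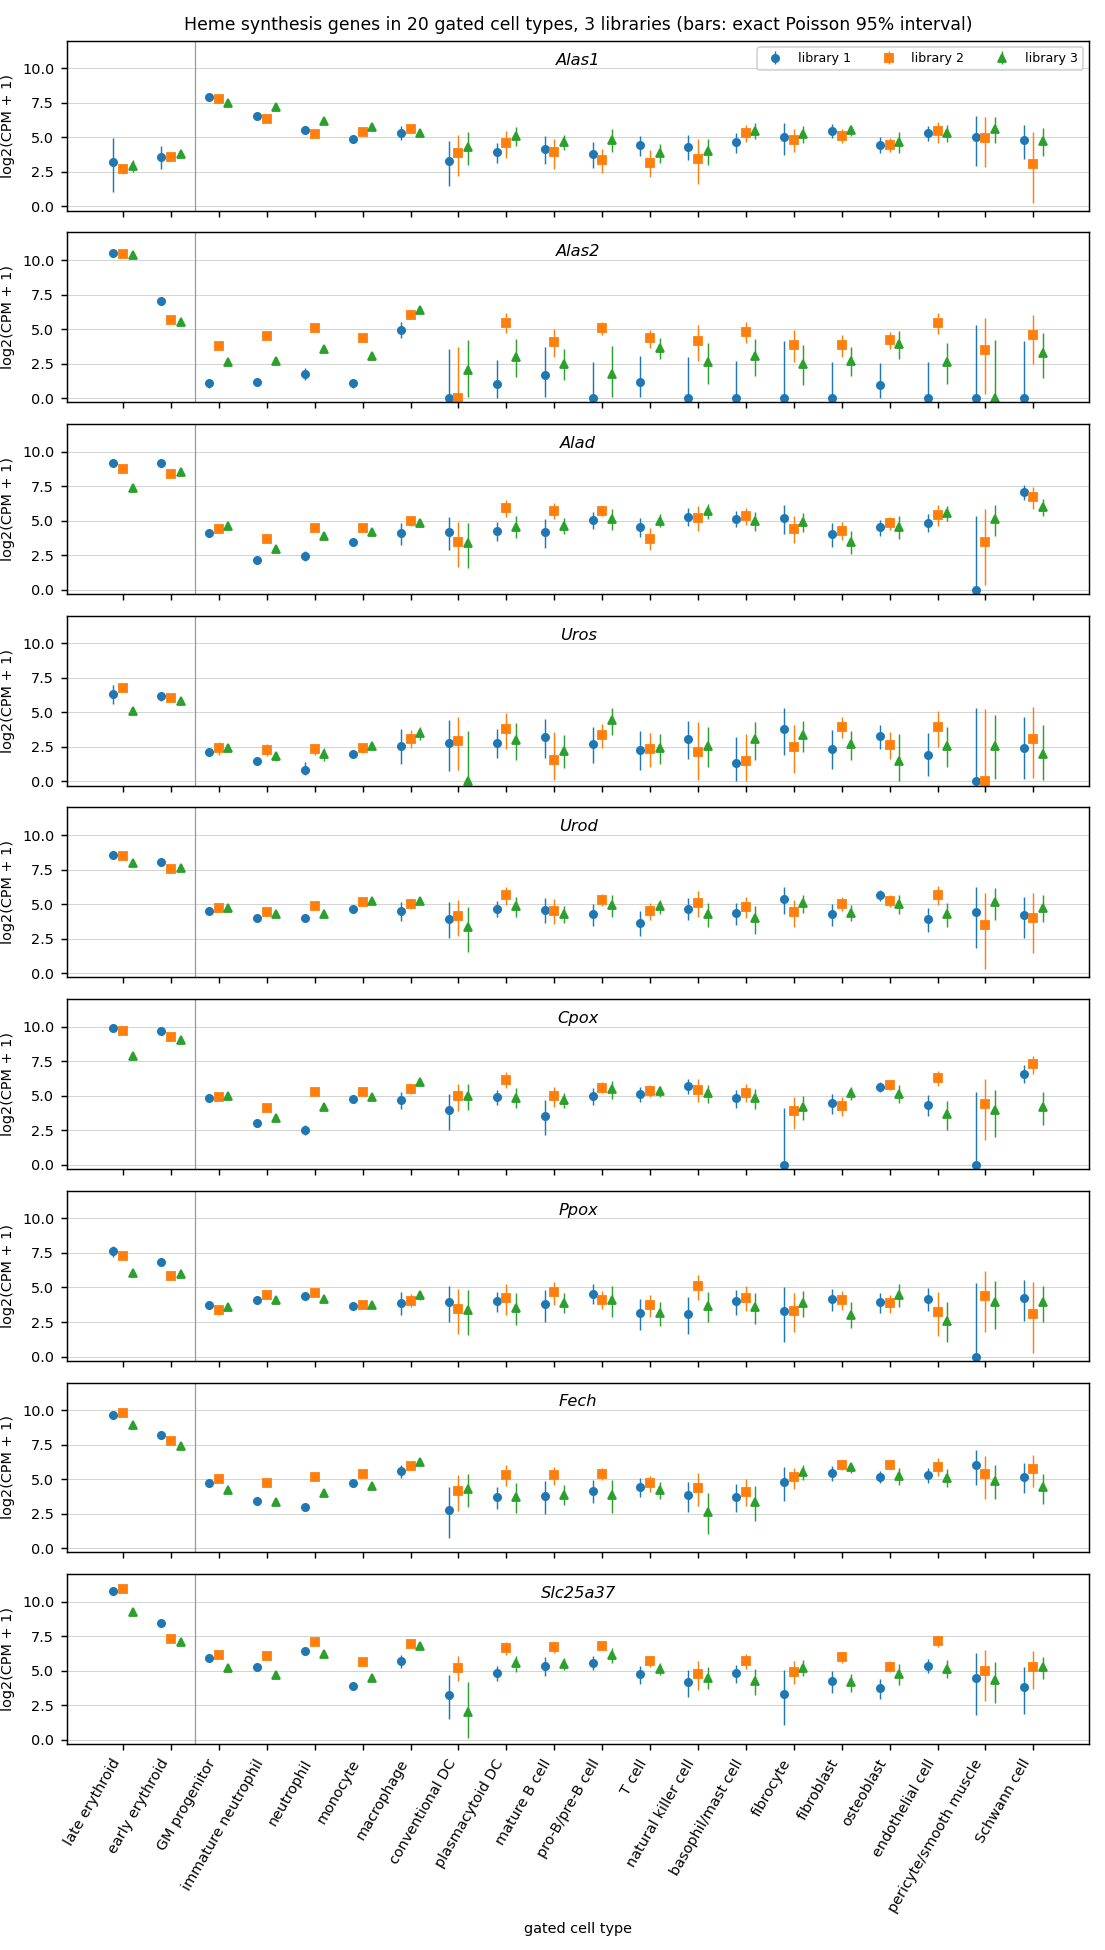
Level of each gene as log2(CPM + 1) in 20 gated cell types of the 3 libraries, with exact Poisson 95% intervals; late and early erythroid cells stand left of the grey line. Alas1 is highest in GM progenitors, and the other 8 genes are highest in erythroid cells.

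Alas2 outside the erythroid cells stood in a ratio to hemoglobin close to the one it has inside them. Macrophages had the most, with 30.1, 64.5 and 80.9 CPM of Alas2, above the early erythroid value in libraries 2 and 3. Per 1000 hemoglobin UMIs that is 4.45, 4.20 and 3.51 in macrophages, against 3.51, 2.62 and 1.80 in late and 3.68, 3.37 and 3.09 in early erythroid cells. In 17, 16 and 18 of the 18 other types the exact 95% interval of this ratio reached the span of the erythroid cells' intervals in libraries 1, 2 and 3, several of them with 0 UMIs of Alas2, whose intervals are wide. Hemoglobin itself was met in 30.9% of neutrophils of library 1 but 100% and 99.8% of those of libraries 2 and 3. The part of free RNA in the Alas2 of these types was not tested. In libraries 2 and 3 Alas2 was not alone in this: Alad and Cpox, with wider spans in the erythroid cells, reached them in 18 of the 18 types in both libraries, and Fech in 17 and 16, whereas in library 1 Alad, Cpox and Fech did so in 4, 4 and 3. For Alas2 the types beyond the span were monocytes in library 1 and neutrophils and basophils or mast cells in library 2. Hemoglobin was uneven among macrophages, and in library 1 only 50.7% had a UMI of it. Its median share of a macrophage's UMIs was 0.0132%, 0.354% and 0.309%, against 6750, 15351 and 23018 CPM in the summed macrophages. The summed values thus lean on hemoglobin-rich cells, whose part in the macrophage Alas2 was not tested.

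Slc25a37 did not keep that ratio. Mature neutrophils had 83.8, 136 and 73.0 CPM of it, which is 137, 17.9 and 19.9 per 1000 hemoglobin UMIs, against 4.14, 3.82 and 0.876 in late and 10.1, 10.3 and 9.35 in early erythroid cells. GM progenitors had 233, 21.9 and 15.6 per 1000. In library 1, which had the least hemoglobin outside the erythroid cells, 16 of the 18 other types lay above the span of the erythroid cells, in library 2 there were 6 and in library 3 there were 8. Neutrophils and GM progenitors were among them in all 3 libraries.

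**Figure D5:**
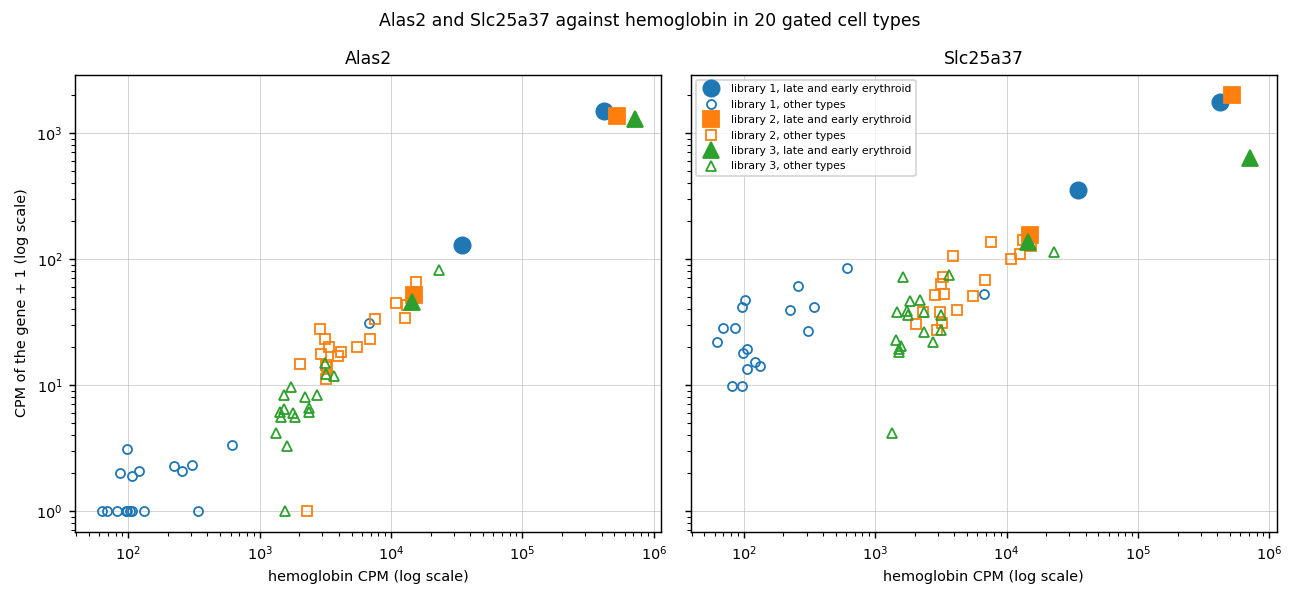
CPM of Alas2 (left) and Slc25a37 (right), each plus 1, against hemoglobin CPM in 20 gated types of the 3 libraries, on log scales; filled symbols are late and early erythroid cells and open symbols the 18 other types. Alas2 is higher in types with more hemoglobin, while Slc25a37 stays between 8.72 and 83.8 CPM in the other types of library 1 at hemoglobin levels far below those of erythroid cells.

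Most helper genes of the pathway also rose. Of 17 genes for transport of heme precursors, iron-sulfur supply and enzyme stability, 10 rose in late over early erythroid cells and 1 fell, with a median of 1.30 on the log2 scale against 0.13 over all genes. Slc25a39, which brings glutathione into mitochondria, rose by 3.10 ± 0.33, Fam210b, a mitochondrial protein that red cell precursors need for heme synthesis, by 2.95 ± 0.34, and Tspo2 by 2.03 ± 0.42 (SE; edgeR adjusted p of at most 0.00086). Pgrmc1, a heme-binding partner of ferrochelatase, fell by 0.72 ± 0.26. In early erythroid cells over GM progenitors 13 of the 17 rose and 1 fell, with a median of 1.97 against -0.03 over all genes, led by Tspo2 at 6.55 ± 0.52 and Fam210b at 3.99 ± 0.36.

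Of 10 iron supply genes, 7 rose and 2 fell in late over early cells, with a median of 1.16; over all genes, 27.9% rose and 19.4% fell in that comparison, and 17.8% rose and 25.4% fell in early cells over GM progenitors, which holds for all 4 lists. Trf, transferrin, rose by 2.27 ± 0.45, Hfe by 2.02 ± 0.73 and the transferrin receptor gene Tfrc by 1.68 ± 0.28, while Aco1, which encodes iron regulatory protein 1, fell by 1.82 ± 0.35 (SE; edgeR adjusted p of at most 0.030). In early cells over GM progenitors 6 rose and 2 fell, with a median of 1.12; Steap3, the endosomal iron reductase, rose by 3.09 ± 0.25 and Hfe fell by 3.98 ± 0.47. Of 15 genes for heme use, export and breakdown 11 could be tested, and 8 rose and 1 fell in late over early cells, with a median of 1.45. Cat, the heme enzyme catalase, rose by 3.66 ± 0.36, Hmox1, heme oxygenase 1, by 3.20 ± 0.52, the heme transporter gene Slc48a1 by 2.64 ± 0.33 and Eif2ak1, the heme-regulated kinase that slows translation, by 2.53 ± 0.30. The 7 macrophage markers summed to 366, 39.5 and 88.7 CPM in late cells and 40.01, 33.6 and 48.8 CPM in early cells, and their part in Hmox1, Slc48a1, Hfe and Trf, which macrophages also use, was not tested. In early cells over GM progenitors 3 of the 11 rose and 3 fell, with a median of -0.13; Blvrb, biliverdin reductase B, rose by 6.09 ± 0.37, and Cyba, a subunit of the phagocyte oxidase, fell by 3.05 ± 0.30.

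Of 11 regulators 10 could be tested, and 6 rose and 2 fell in late over early cells, with a median of 1.10. Nfe2 rose by 3.09 ± 0.30, Foxo3 by 2.43 ± 0.27 and Tal1 by 1.69 ± 0.28, and Gata2, which is also a marker of 1 of the other gates, fell by 1.46 ± 0.58. Gata1, the GATA factor of red cell precursors, differed by 0.31 ± 0.34 and did not pass (edgeR adjusted p = 0.47). In early cells over GM progenitors 5 rose and 1 fell, with a median of 0.96, Gata1 at 6.47 ± 0.41 and Zfpm1, its cofactor FOG1, at 5.31 ± 0.35. The lists' counts take the place of a test of the lists, and nothing particular to them is read from these.

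Across 64 sums of cell type and library, and 14768 genes outside the gates, the genes most like each of the 9 by Pearson's r of log2(CPM + 1) were named as a description; the sums share libraries, depth and free RNA. Alas2 was most like Apol11b (r = 0.93) and Epb42 (0.90), which encodes a part of the red cell membrane skeleton. Slc25a37 was most like 5430401H09Rik (0.87) and the globin gene Hbq1b (0.86). Alad was most like Cpox (0.82), Prdx2 (0.79) and Uros (0.77), and Cpox most like Alad, Ubac1 (0.81) and Glrx5 (0.80). Uros was most like Urod (0.85), Prdx2 (0.82) and Acp1 (0.80), and Urod most like Add2 (0.88) and Ubac1 (0.88). Ppox was most like Nadk2 (0.78), Redrum (0.77) and Bsdc1 (0.75), and Fech most like Ptdss2 (0.84), Ranbp10 (0.83) and Prdx2 (0.83). Alas1 was most like Anxa3 (0.80), Prdx5 (0.74) and Dstn (0.72), and its r with the other 8 ran between -0.43 and -0.23. Ranked by Spearman's rho instead, the 3 most like genes changed for 8 of the 9, Alas1 being the exception, and for Alad and Fech none of the 3 was shared.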

How the data were processed

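Cells of 3 cochlear 10x 3′ libraries were read from 1 deposited matrix of raw UMI counts, made by the authors with Cell Ranger 7.1.0 per the file headers, on genome build GRCm39 per the submitters' processing notes; the settings of cell calling, of depth matching between libraries and of strand were not given in the sources used here. Barcodes with at least 500 UMIs, at least 200 genes and at most 20% mitochondrial UMIs were kept. The 9 genes, the markers and the gene lists were chosen with earlier results of these data known, and the gate thresholds after seeing the data. Non-erythroid cells were named by a mean scaled marker score of at least 0.3, at least 0.1 above the next list, with at least 3 markers detected; 435 cells passing an erythroid and another gate were left out. Doublets called by Scrublet (scanpy 1.11.5) were kept in the main values and left out as an alternative.

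Counts were summed per type and library and tested with edgeR 4.0.16 (R 4.3.3), with TMM scaling (factors of 0.306 to 0.958 in late erythroid sums, 1.28 to 1.49 in the others), filterByExpr, library as a block, and Benjamini-Hochberg adjustment over all genes, calling at 0.05. Sums of 1 library come from the same pooled mice, so the barcode suffix pairs them. The libraries differ in exposure, so p-values measure how alike the differences are over 3 libraries. Intervals are exact Poisson (CPM, ratios) or Clopper-Pearson (shares) at 95%, and cover counting error only. Depth over all deposited barcodes was 132576349, 93048140 and 146324872 UMIs. Named genes were the 9, the 3 most like each, and of each list up to 4 called genes with the largest late-over-early difference and up to 2 for early cells over progenitors; Gata1 in late over early cells and Pgrmc1 were added after their values were seen, and some genes that this rule picks are not reported here. The code was tested on simulated sums with the same mean profile in all cell types, but for 200 genes changed in late cells. Hemoglobin's rise in late cells was not built in, so this cannot test the scaling of late cells. The alternatives were DESeq2 1.42.0, other scalings, filters, gates and depths, and each library left out. Promoter sequences are RefSeq's on GRCm38.p6, whose coordinates are not those of the files' build.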

Additional observations from a re-analysis of the deposited data

How the results depend on the processing

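Of 405 recomputed log2 differences of the 9 genes, 395 kept their direction and side of the threshold; late or early erythroid cells over GM progenitors kept all. Late over early, library totals in place of TMM turned Alas1 to -0.90, Alad to -0.18 and Cpox to -0.10, and Uros (0.10), Urod (0.62) and Ppox (0.77) no longer passed; 3 of the 9 rose, with 501 genes higher and 7574 lower, against 3289 and 2280. Late over progenitors that scaling gave 1002 higher and 8189 lower, against 3159 and 3597. A late gate from 50% hemoglobin turned Alad to -0.35, left 5 of the 9 higher (Uros at 1.26 and Cpox at 0.19 did not pass), and gave 1518 genes lower late over early and 1899 late over progenitors. With 2 cell types in the fit 2145 genes were higher and 3080 lower late over early, and 3241 higher early over progenitors, against 2102; with hemoglobin genes removed, early over progenitors had 3420 higher and 2463 lower, against 2102 and 2992, and late over early 2909 higher and 3015 lower. Leaving out 1 library gave 2081 to 3471 genes higher late over early and 2284 to 3380 lower late over progenitors, the lowest without library 2, and took the call of Alad. Without the replicate block, the same members were called, with 2815 genes higher and 1830 lower late over early, 1652 and 2589 early over progenitors and 2936 and 3230 late over progenitors. The cause of each change was not tested.

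Of 2160 recomputed CPM values 2087 moved by less than their interval, and of 540 shares of cells 472 moved when cells were thinned to 1000 UMIs. The bin in which a gene was highest was the same in 11 of 27 cases with all UMIs as the denominator. Library 1, with 45 late and 64 early cells, limits what can be seen of Alas1 there (2 and 11 UMIs).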
